A study of Mus musculus with 21 samples.

Results

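PTBP1 crosslink sites that lay inside very long mouse genes were examined in B cells. PTBP1 (polypyrimidine tract binding protein 1) is an RNA-binding protein, and iCLIP (individual-nucleotide crosslinking and immunoprecipitation) maps the nucleotides at which it touches RNA. A site belonged to the set when it lay in exactly 1 protein-coding RefSeq span of at least 300 kb in mouse build GRCm38 and more than 2 kb from either end of that span, with Ebf1 left out. Of 244659 sites in the pooled list, 26248 (10.7%) met the rule, and they carried 37311 of 432167 cDNAs (8.63%), a cDNA being 1 distinct crosslinked fragment. The other sites were accounted for as follows: 29504 lay in no protein-coding span, 3061 lay in more than 1, and 212094 lay in exactly 1. Of the last, 29234 were in spans of at least 300 kb, of which 2632 were in Ebf1 and a further 354 were too close to a span end. There were 556 such long genes, 340 with a site and 216 without. Apart from the exclusion of Ebf1 by name, the choice of sites used span length and position only, and no measured level.

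The series combined these iCLIP libraries with mRNA sequencing of germinal centre B cells, the activated B cells that divide in the dark zone (DZ) and are selected in the light zone (LZ) of lymphoid follicles. Female C57BL/6 mice gave the cells for the 5 iCLIP libraries, splenic B cells isolated by removal of other cells and stimulated ex vivo with LPS for 48 h. They were not germinal centre cells, and the labels give no genotype for them. The 16 mRNA libraries were from C57BL/6 mice that had received NP-KLH in alum 7 days before cell sorting. Control mice carried CD79a+/+Ptbp1fl/fl, that is, loxP-flanked Ptbp1 with no Cre. Conditional knockout (cKO) mice carried CD79acre/+Ptbp1fl/fl, in which Cre is expressed from the Cd79a locus in the B lineage, so every group had the floxed Ptbp1 alleles. The 4 groups were LZ control, LZ cKO, DZ control and DZ cKO, with 4 libraries each. Cells of 3 to 5 mice that shared genotype and sex were pooled for each library, males on sort days 1 and 2 and females on days 3 and 4, and the LZ and DZ cells of a pool were sorted from the same material. The Cre allele was present only in the cKO mice, so an effect of that allele and an effect of PTBP1 loss cannot be told apart.

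PTBP1 binds pyrimidine-rich RNA, in particular runs of C and U, and is best known as a repressor of exon inclusion. Much of its binding in nuclear RNA falls in introns, and introns make up most of the length of very long genes. Very long genes take long to transcribe, and many of them encode neuronal adhesion and synaptic proteins, while a smaller number are signalling and transcription factor genes of lymphocytes.

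Sequence could be read for member sites that fell under a RefSeq promoter window (build GRCm38.p6), which gave 11 stretches of 30 bases in 5 long genes. The 8 printed here, at least 1 for each gene, are examples of the sequence around the sites. Each is written 5′ to 3′ on the strand of the crosslinked RNA with T for U, and capitals mark the nucleotides listed as crosslinked.
Foxp1 chr6:99204496-99204525, minus strand: tttcTTtcTTcaactctcctgatCTTtccc
Foxp1 chr6:99204543-99204572, minus strand: tcttctCtacttggggtatTtCaTTttctc
Foxp1 chr6:99204576-99204605, minus strand: tgtgattagcaggcTTTtcttgtttcttcc
Elmo1 chr13:20472740-20472769, plus strand: tcCcgctccttctcggtcctcttctttccc
Elmo1 chr13:20472759-20472788, plus strand: tcttctttcccTcgctTTcttcagtccctc
Macf1 chr4:123551982-123552011, minus strand: aaagactTttctactgctctctTtgttcct
Prkce chr17:86445199-86445228, plus strand: cacttcctTttgcgtcttctCtgaattttg
Supt3 chr17:44814787-44814816, plus strand: ctcaatctttttccTTctcccctcccctcc
The sets show clusters of listed nucleotides inside C- and T-rich stretches. The first Foxp1 stretch held 7 listed nucleotides and its cluster carried 14 cDNAs. Over the 11 stretches, 24 of 31 listed nucleotides were T and 78.8% of bases were pyrimidines. The stretches not printed were below that share, at 63.3% (Macf1), 70.0% (Elmo1) and 76.7% (Supt3). The tetramer TCTT was present in 11 of 11 stretches, TTCT in 10 and CTCT in 7, searched on the crosslinked strand. TCTT and TTCT overlap each other by 3 letters, as do TCTT and CTCT. In 6970 pieces of 30 bases from promoter windows inside long spans, read on the strand of the long gene, 50.8% of bases were pyrimidines and TCTT was in 15.5%, TTCT in 16.8% and CTCT in 16.2%. In 657020 pieces from all promoter windows on both strands, TCTT was in 12.3%, TTCT in 14.2% and CTCT in 15.1%. These stretches were chosen by where promoter windows happened to fall, and 2 of the Elmo1 stretches overlap each other, so they do not stand for all member sites. Whether a site lay in an exon or an intron was not analysed here, since no exon annotation of the build was used.

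The mRNA libraries held 26823882 to 34240096 reads assigned to genes. Ptbp1 itself ranged from 361 to 411 CPM (read counts scaled to library size) in LZ control and from 83.1 to 120.0 in LZ cKO, with 427 to 479 in DZ control and 94.2 to 120.0 in DZ cKO. The cKO libraries were lower by 1.95 ± 0.11 (SE) on the log2 scale in LZ and by 2.10 ± 0.11 in DZ (edgeR quasi-likelihood test, Benjamini-Hochberg adjusted p = 1.83e-07 and 6.67e-08). The 8 germinal centre B cell markers summed to 7221 to 10790 CPM in every library, the LZ markers Cd83 and Cd86 to 1584 to 2036 in LZ against 372 to 558 in DZ, and the DZ marker Cxcr4 to 30.8 to 41.7 in LZ against 68.4 to 86.8 in DZ. Markers of other cells summed to less than the germinal centre B cell markers but were present in all 4 groups. The 6 macrophage genes summed to 22.4 to 375 in LZ control, 75.6 to 461 in LZ cKO, 13.2 to 393 in DZ control and 36.8 to 1103 in DZ cKO. Over all libraries, 5 T cell genes summed to 9.99 to 174, 3 plasma cell genes to 270 to 1121 and 5 neutrophil genes to 0.0 to 86.0. Their part in the RNA results was not tested. In these bulk samples fewer cells expressing a gene and less RNA per cell cannot be told apart.

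Very long genes carried PTBP1 sites at a lower density than shorter genes. The long spans held 0.0845 sites per kb, against 0.209 in spans of 100 to 300 kb, 0.299 in spans of 30 to 100 kb and 0.259 in spans under 30 kb. In each of the 5 iCLIP libraries the density in long spans was below that in spans of 30 to 300 kb, with ratios of 0.377, 0.318, 0.321, 0.363 and 0.314 in libraries 1 to 5. The mean log2 ratio was -1.57 ± 0.12 (SD, n = 5 libraries; exact two-sided sign-flip permutation test, p = 0.062, the smallest that 5 libraries allow, so that this design cannot reach 0.05). RNA differed with span too: 212 of the 556 long genes (38.1%) passed the low-count filter in the germinal centre mRNA, against 64.7% of genes of 100 to 300 kb and 70.5% of genes of 30 to 100 kb. Among genes past that filter the densities were 0.244, 0.322 and 0.419 sites per kb in the same order. There the 5 ratios of long genes to genes of 30 to 300 kb were 0.714, 0.605, 0.504, 0.706 and 0.599, and the mean log2 ratio was -0.69 ± 0.21 (SD, n = 5; the same exact test, p = 0.062). The restriction to genes with RNA was an analysis added after the data were seen.

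**Figure D1:**
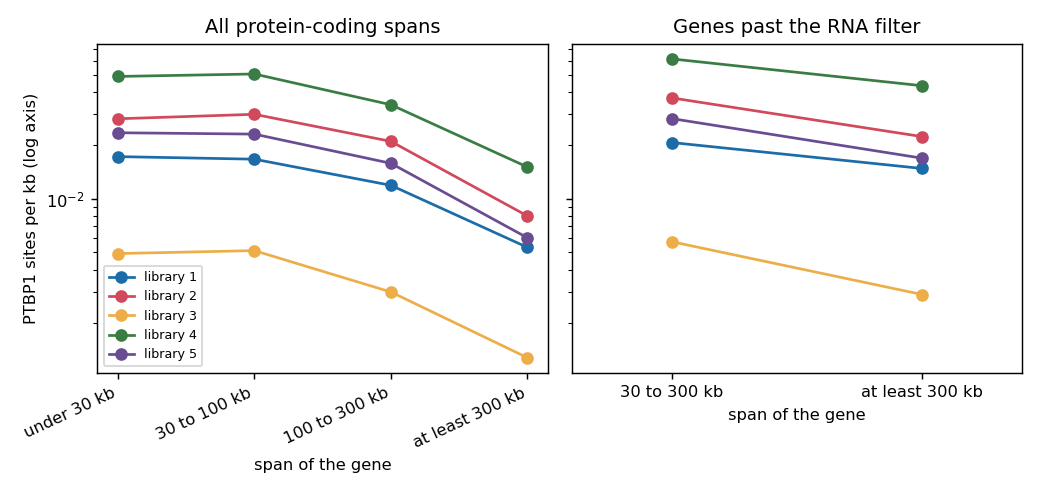
PTBP1 sites per kb (log axis) in each of the 5 iCLIP libraries, against the span of the gene, for all protein-coding genes (left) and for genes past the RNA filter (right). In all 5 libraries the point for spans of at least 300 kb is the lowest, and the gap is smaller among genes with RNA.

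The 344 long genes whose RNA did not pass the filter held 878 sites (3.35% of the set), at 0.00425 sites per kb, and no more than 31 in any gene. The 212 genes that passed held 25370 sites, and 160 of them had at least 1. Among genes past the filter, a site was present in 75.5% of long genes, 70.4% of genes of 100 to 300 kb, 65.0% of genes of 30 to 100 kb and 35.6% of genes under 30 kb. These shares cover genes with at least 1 kb of interior in exactly 1 protein-coding span. Under 30 kb these were 5725 of the 7263 genes past the filter. A longer span also has more room for at least 1 site. Of the sites in long genes without RNA, 89.8% lay on the strand of the gene (587 of 654; 95% exact binomial interval 87.2 to 92.0%), against 99.8% in genes with RNA (21610 of 21662; interval 99.7 to 99.8%). Sites of 1 gene share their source, and these intervals cover counting error only. Both readings rest on cells of different kinds, since the sites came from LPS-stimulated cells and the RNA from germinal centre cells.

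Within the 212 genes with RNA, the density of sites went up with the RNA level of the control libraries. The 71 genes with the lowest levels (0.0526 to 1.75 CPM) had a median of 0.00181 sites per kb and 34 had no site. The 71 genes in the middle (1.79 to 19.6 CPM) had a median of 0.0207 and 17 had no site. The 70 genes with the highest levels (20.3 to 525 CPM) had a median of 0.377 and 1 gene, Ccdc171, had no site. Spearman's rho was 0.704 across the 212 genes, given as a description, since the genes share libraries and depth and CPM is not scaled by transcript length. Some genes stood off this relation, which sets sites of LPS-stimulated cells against RNA of germinal centre cells. Immp2l, which encodes a mitochondrial inner membrane peptidase, had 538 sites at a control mean of 2.33 CPM in LZ and 1.69 in DZ. Kcnq5 and Cacna1e, which encode a potassium and a calcium channel subunit, had 935 and 586 sites at control means of at most 17.3 and 9.73 CPM. Ccdc171, by contrast, had control means of 18.4 CPM in LZ and 22.8 in DZ and no site in 340.7 kb. It was named after its value was seen.

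**Figure D2:**
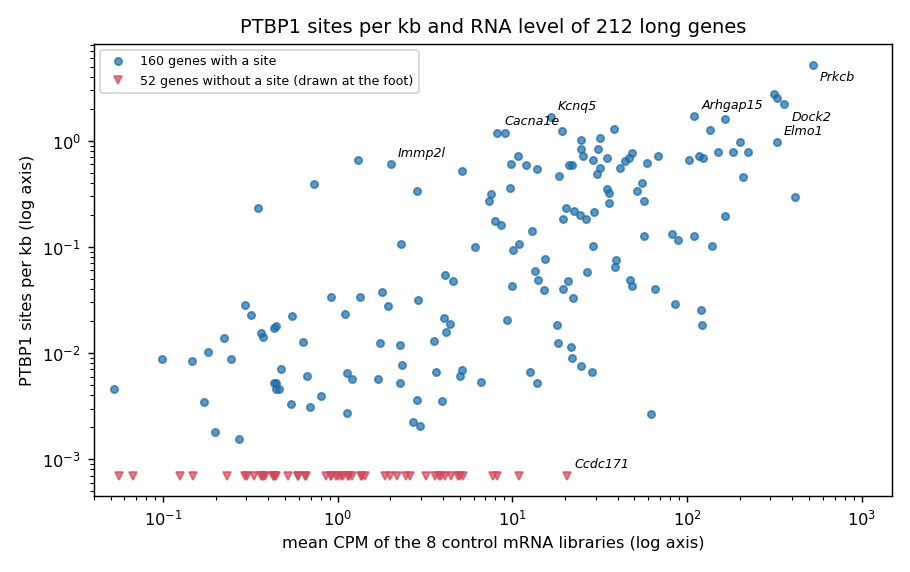
PTBP1 sites per kb (log axis) against the mean CPM of the 8 control mRNA libraries (log axis) for the 212 long genes with RNA, with the 52 genes without a site drawn at the foot. Immp2l, Kcnq5 and Cacna1e lie above genes of like RNA level, and Ccdc171 has the highest level among genes without a site.

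The sites were concentrated in few genes. Prkcb alone held 1790 sites (6.82% of the set), the 5 genes with the most sites held 24.2%, the 12 with the most held 42.4%, and 17 genes held 51.5%. The 50 genes with the most held 84.2%. By role, 23 long genes of a list of kinase, lipid and GTPase signalling genes held 7641 sites (29.1%; 0.620 per kb) and 18 long genes of a list of transcription and chromatin genes held 5110 (19.5%; 0.520 per kb). The 12 long genes of membrane traffic held 1583 sites (0.279 per kb). The 15 common fragile site and other very large genes held 1342 (0.0673 per kb), of which Immp2l had 538 and Rad51b 287. The 18 adhesion and synapse genes, of which 3 had RNA past the filter, held 97 sites (0.00392 per kb), no gene more than the 16 of Kcnip4.

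Prkcb encodes protein kinase C beta, which acts below the B cell receptor in NF-kB activation, and lies at chr7:122289104-122634402 on the plus strand (345.3 kb). It had 5.25 sites per kb, the highest density of the long genes with at least 10 sites. The separate lists of libraries 1 to 5 held 219, 331, 13, 398 and 220 sites in it. Library 3, whose whole list was the shortest, was the lowest in Prkcb. Of the Prkcb sites, 53.1% were found at the same nucleotide in at least 1 separate list, and 42 of its 312 clusters were in at least 3 lists. Its sites were dense at the 5′ end, with 66.2% in the first 20% of the span.

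Foxp1 encodes a forkhead transcription factor of B cell development and lies at chr6:98925342-99522746 on the minus strand. It had 1506 sites, 2.54 per kb, and the 5 lists held 146, 253, 0, 252 and 74. The first site lay 149.2 kb from the 5′ end of the span, and 95% of its sites lay beyond 272.4 kb. The promoter table places a RefSeq start at 256.2 kb, so nearly all sites were past that start. Bach2, at chr4:32238413-32586109, encodes a repressor that holds B cells back from plasma cell fate. It had 955 sites, 2.78 per kb, with 85, 115, 0, 274 and 93 in the lists, and 33.6% of its sites lay between 40 and 60% of the span and 41.6% between 60 and 80%. Aff3, a transcriptional elongation factor gene, had 579 sites, with 38.2% in the first 20% of its span and 36.4% in the next 20%.

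Dock2 encodes the Rac activator of lymphocyte migration and lies at chr11:34226815-34783905 on the minus strand. It had 982 sites, 2.21 per kb, with 183, 131, 20, 392 and 170 in the lists. A single window of 10 kb held 369 of them (37.6%), the longest stretch without a site was 136.7 kb, and only 28 of its 56 windows held any. Its partner Elmo1 had 504 sites in 42 of 52 windows, and at most 48 in 1 window. Windows and stretches were counted over the whole span. Parts of a span shared with another protein-coding gene, as in Dock2, could not hold a member site. Arhgap15, a Rac GTPase-activating protein gene at chr2:43748798-44395953, had 1106 sites, 1.72 per kb, with 58, 87, 33, 201 and 72 in the lists and 64.2% between 20 and 40% of the span. Inpp4b, a phosphoinositide phosphatase gene, had 662 sites, with 38.8% in the first 20% of its span and 52.6% in the next 20%. Prkce, which encodes protein kinase C epsilon, had 577 sites, all on 1 strand; its own strand is not in the table used.

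**Figure D3:**
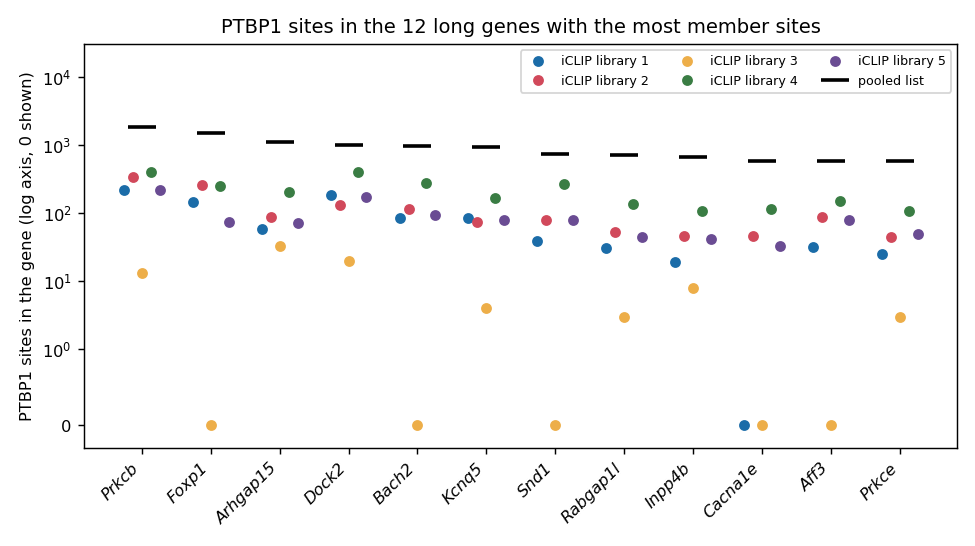
Number of PTBP1 sites (log axis with 0 shown) in the 12 long genes with the most sites, in the pooled list (bars) and in each of the 5 separate iCLIP lists (points). Prkcb leads in the pooled list with 1790 sites, and library 3 gives the lowest count or shares it in each of the 12 genes.

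Along the genes the sites were denser toward the 5′ end. Of 22197 sites on the strand of the gene, 15.6% lay in the first 10% of the span, 15.3% in the next 10%, 9.63% between 40 and 50% and 6.94% in the last 10%. Among 60 genes with at least 50 such sites, 43 had more than 50% of them in the 5′ 50% of the span, and the median share was 69.3% (0 to 95.1%). In 51 of the 60 the first site lay in the first 10% of the span. In 9 it lay further in. In 6 of those 9 the promoter table holds a RefSeq start past the first 10% of the span and before 95% of the sites, though not always before the first site. The extremes were Mid1 (first site after 94.2% of the span), Marchf1 (90.5%), Celf2 (78.8%) and Iqsec1 (68.6%), chosen after their values were seen. In Celf2, which encodes a splicing regulator, the first site lay 675.3 kb from the 5′ end, and a RefSeq start lay at 674.7 kb. In Marchf1, which encodes a ubiquitin ligase of MHC class II, the first site lay at 773.8 kb and a start at 768.3 kb.

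**Figure D4:**
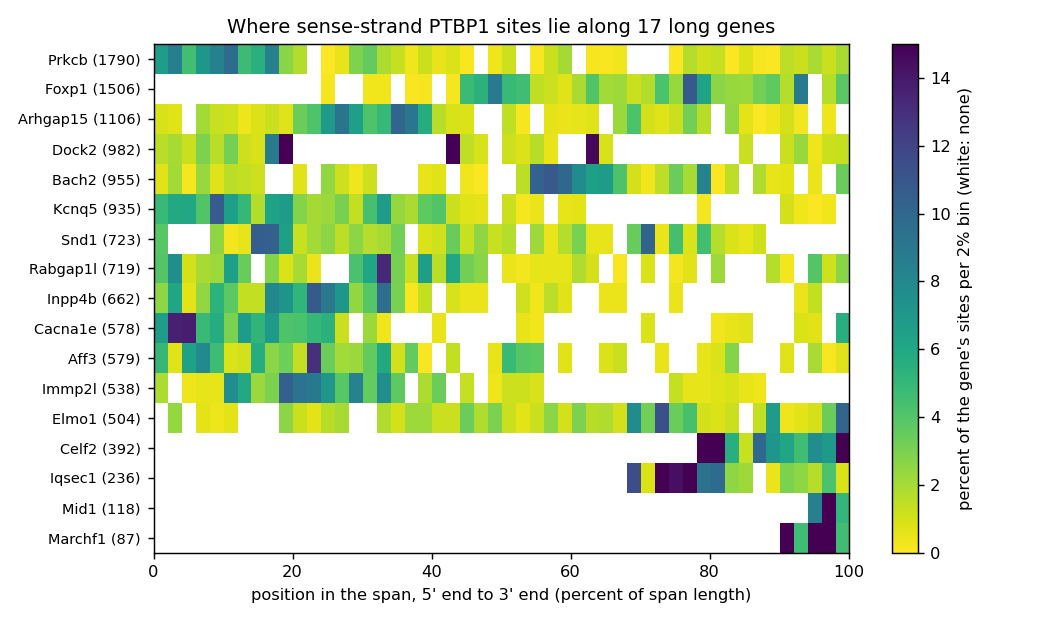
Share of each gene's sense-strand PTBP1 sites per bin of 2% of the span (colour), from the 5′ end to the 3′ end (percent of span length), for 17 long genes with the number of such sites in brackets. Prkcb, Kcnq5 and Cacna1e are filled from the 5′ end, while Celf2, Iqsec1, Mid1 and Marchf1 are empty over the first 68.6% of the span or more.

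Sites came in tight groups. Of the member sites, 96.3% had another site on the same strand within 15 nt, and 39.2% had one at the next nucleotide. The shares were 96.5% and 40.5% in spans of 100 to 300 kb, 96.9% and 42.9% in spans of 30 to 100 kb, and 97.0% and 45.1% in spans under 30 kb. Some of this neighbouring is built in, since the deposited false discovery rate was computed over 15 nt around each position. Joining sites with gaps of at most 15 nt gave 7644 clusters in long genes, with 3.43 sites each, against 3.65, 3.83 and 3.98 in the successively shorter classes. Clusters of 5 or more sites made up 18.1% in long genes, against 21.7%, 24.2% and 24.3%. Of the sites whose gene had a strand in the table, 99.5% lay on that strand (22197 of 22316; exact binomial interval 99.4 to 99.6%).

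The clusters with the most cDNAs were of different shapes. In Dock2 a cluster at chr11:34681787-34682035 held 105 sites and 249 cDNAs and was the widest of the set at 249 nt, and the separate lists gave 64, 19, 8, 91 and 62 cDNAs there. In Camk1d, a calmodulin-dependent kinase gene, a cluster at chr2:5379334-5379377 held 35 sites and 225 cDNAs, with 28, 58, 13, 84 and 40 in the lists. In Prkcb the largest, at chr7:122316932-122317114, held 56 sites and 109 cDNAs. These are broad groups on the strand of an expressed gene.

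Others were narrow or lay in genes without RNA. In Ephb1, an ephrin receptor gene listed at 0 counts in all 16 mRNA libraries, the only 3 sites (chr9:102127916-102127918) carried 172 cDNAs, 121 of them at 1 nucleotide. They lay on the strand opposite to the gene and under the RefSeq pseudogene n-R5s88, named for 5S ribosomal RNA. In Kcnip1, a potassium channel interacting protein gene with RNA in 1 of 16 libraries (0.362 CPM), a cluster at chr11:33754851-33754892 held 14 sites and 140 cDNAs and appeared in 5 lists. Of 19 clusters with at least 50 cDNAs, 12 were wider than 50 nt, 3 were at most 10 nt wide (in Ephb1, Sh3kbp1 and Sgcd), and 9 appeared in all 5 lists. In all, 1334 member sites (5.08%) lay under another RefSeq gene that does not code for protein, 1192 of them under lncRNA genes.

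Most sites were not called at the same nucleotide in a separately filtered list. A site with 1 cDNA can be in 1 list at most. Of the member sites, 64.1% were in none of the 5 separate lists at the same nucleotide, 32.3% were in 1, 2.76% in 2 and 0.0533% (14 sites) in all 5. The share in no list was 65.5% for spans of 100 to 300 kb and for spans of 30 to 100 kb, and 63.5% for spans under 30 kb. Support went with cDNA number: of 19857 sites with 1 cDNA, 31.1% were in a separate list, against 47.7% of sites with 2 to 4 cDNAs, 93.3% with 5 to 9 and 100.0% of the 63 with 10 or more. Since the pooled list sums the cDNAs of the same 5 libraries, this is a description and not an independent check. The separate lists held 1654, 2485, 396, 4686 and 1873 long-gene sites in libraries 1 to 5, which was 9.41%, 8.62%, 6.38%, 10.3% and 8.11% of each list. Of these, 96.3%, 96.3%, 87.9%, 96.7% and 96.9% were also in the pooled list. Among the 61 genes with at least 100 member sites, the share of sites in a separate list ran from 4.47% in Fam172a to 83.9% in Mid1 with a median of 30.6%. Of the 61 genes, 26 had a site in every list and 29 had none in library 3.

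The RNA of very long genes was then compared between cKO and control cells of each zone. In LZ, 2 of the 212 long genes with RNA passed the test, against 171 of all 15789 genes tested (1.08%). Of the 2, 1 was higher in cKO and 1 lower, against 0.69% and 0.393% of all genes. In DZ it was again 2, against 99 of 15789 (0.627%), with 1 higher and 1 lower, against 0.31% and 0.317%. These shares are near those of all genes, so the counts say nothing particular about long genes. The median log2 fold change of the 212 genes was 0.12 in LZ, against 0.02 over all genes, and 0.05 in DZ against 0.01. Genes of 100 to 300 kb had medians of 0.12 in LZ and 0.07 in DZ. A median above that of all genes was thus not particular to very long genes. For the 61 long genes with at least 100 sites the medians were -0.03 and -0.07, and 1 of them, Gmds, passed in LZ and none in DZ.

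Sort day was shared by the libraries with the same replicate number, and with sort day as a replicate block the counts were higher: 11 long genes in LZ, against 868 of all genes (5.5%), and 9 in DZ, against 517 of all genes (3.27%). DESeq2 called 10 long genes in LZ and 7 in DZ, against 3.57% and 2.74% of all genes. The long genes called in LZ with the block included Celf2, Adk, Gmds, Lpp, Fry, Hdac9, Arhgap15, Itpr1, Vwa8 and Aopep. The long genes called in DZ with the block included Adk, Foxp1, Celf2, Nedd4l, Mctp1, Prkca, Cdk14 and Itpr1.

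Adk, which encodes adenosine kinase, was higher in cKO cells of both zones. It lies at chr14:21052574-21448569 on the plus strand and held 46 sites in 21 clusters, 13 of them found in a separate list. In LZ its levels were 85.1, 83.3, 94.0 and 86.4 CPM in control libraries 1 to 4 and 112, 105, 135 and 139 in the cKO libraries. In DZ they were 97.1, 89.1, 88.2 and 88.1 in control and 125, 121, 125 and 143 in cKO. The groups did not overlap in either zone, and the cKO library was the higher on all 4 days. The log2 fold change was 0.49 ± 0.09 (SE) in LZ and 0.52 ± 0.09 in DZ (edgeR adjusted p = 0.0241 and 0.0189). Leaving out LZ control 1, 2 or 4 or LZ cKO 3 or 4 ended the LZ call (adjusted p = 0.0563 to 0.0780), and leaving out DZ control 2, 3 or 4 or DZ cKO 2 or 4 ended the DZ call (0.0505 to 0.0662). A fit of the LZ libraries alone also ended the LZ call (adjusted p = 0.105). With sort day as a block both calls stood (edgeR adjusted p = 0.00370 in LZ and 0.00305 in DZ). They also stood by DESeq2 (adjusted p = 0.000172 in LZ and 5.79e-05 in DZ).

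Gmds, which encodes the dehydratase of the first step from GDP-mannose toward GDP-fucose, was lower in LZ cKO cells. It held 110 sites, all on the strand of the gene, of which 12.7% were in a separate list. In LZ its levels were 29.9, 35.5, 31.5 and 31.0 CPM in control and 22.2, 18.1, 23.4 and 19.5 in cKO, with no overlap. In DZ they were 30.7, 23.2, 30.3 and 23.4 in control and 23.1, 21.7, 26.7 and 19.5 in cKO, and the groups overlapped. The log2 fold change was -0.62 ± 0.14 in LZ (edgeR adjusted p = 0.0499) and -0.22 ± 0.14 in DZ (adjusted p = 0.634). The LZ call stood at the threshold and was lost in 14 of the 16 fits that left out 1 library, all but those without DZ control 2 or DZ cKO 3 (adjusted p up to 0.157). It was also lost without the filter on low counts (0.0803) and in a fit of the LZ libraries alone (0.0571), while with sort day as a block the adjusted p was 0.00894. The test of the difference between zones gave an adjusted p of 1.00 (unadjusted 0.0621). That test did not pair the LZ and DZ libraries of the same pool.

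Without sort day in the fit, edgeR called none of the 12 genes with the most sites in LZ or in DZ. With sort day as a block it called Foxp1 in DZ and Arhgap15 in LZ, and DESeq2 called Arhgap15 and Cacna1e in LZ. Prkcb had 682, 657, 541 and 618 CPM in LZ control libraries 1 to 4 and 733, 727, 521 and 559 in LZ cKO, with 412, 464, 383 and 449 in DZ control and 458, 468, 307 and 444 in DZ cKO. The groups overlapped in both zones, with log2 fold changes of 0.02 ± 0.13 and -0.01 ± 0.13 (SE; edgeR adjusted p = 0.980 and 0.988). For Foxp1 the DZ levels were 427, 395, 315 and 369 CPM in control and 329, 272, 174 and 256 in cKO. The cKO library was the lower on all 4 days, although the groups overlapped. The log2 fold change was -0.53 ± 0.17 (edgeR adjusted p = 0.194, and 0.00554 with sort day as a block), and in LZ it was -0.25 ± 0.17 (adjusted p = 0.591). Bach2 had log2 fold changes of -0.24 ± 0.27 and -0.22 ± 0.27, and Dock2 of 0.14 ± 0.18 and -0.40 ± 0.18, in LZ and DZ.

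Among the signalling genes, Arhgap15 had 122, 118, 100.0 and 123 CPM in LZ control and 155, 154, 122 and 156 in LZ cKO. Its cKO library was the higher on all 4 days, and the groups overlapped only through day 3. The log2 fold change was 0.34 ± 0.10 in LZ (edgeR adjusted p = 0.137, and 0.0239 with sort day as a block) and 0.13 ± 0.10 in DZ. Prkca, which encodes protein kinase C alpha and had 415 sites, had 18.6, 19.6, 15.9 and 21.4 CPM in DZ control and 9.51, 13.4, 11.03 and 9.39 in DZ cKO, with no overlap (log2 fold change -0.77 ± 0.20, edgeR adjusted p = 0.0960, and 0.0430 with the block). Itpr1, an IP3 receptor gene with 359 sites, had log2 fold changes of 0.66 ± 0.24 in LZ and 0.65 ± 0.24 in DZ, with the cKO library the higher on all 4 days in both zones (adjusted p = 0.222 and 0.285, and 0.0265 and 0.0498 with the block).

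Celf2, the splicing regulator whose sites all lay past its internal start, had 230, 199, 175 and 178 CPM in LZ control and 288, 241, 233 and 253 in LZ cKO. In DZ it had 274, 228, 190 and 206 in control and 314, 263, 250 and 280 in cKO. In both zones the cKO library was the higher on all 4 days, and the groups overlapped in DZ but not in LZ. The log2 fold change was 0.37 ± 0.10 in LZ and 0.32 ± 0.10 in DZ (edgeR adjusted p = 0.0966 and 0.179, and 0.00276 and 0.00749 with sort day as a block). Cacna1e had 3.76, 9.66, 7.44 and 5.62 CPM in LZ control and 31.7, 12.7, 9.27 and 13.2 in LZ cKO, the first cKO library standing above the others (log2 fold change 1.32 ± 0.35, adjusted p = 0.0931 by edgeR and 0.00972 by DESeq2).

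**Figure D5:**
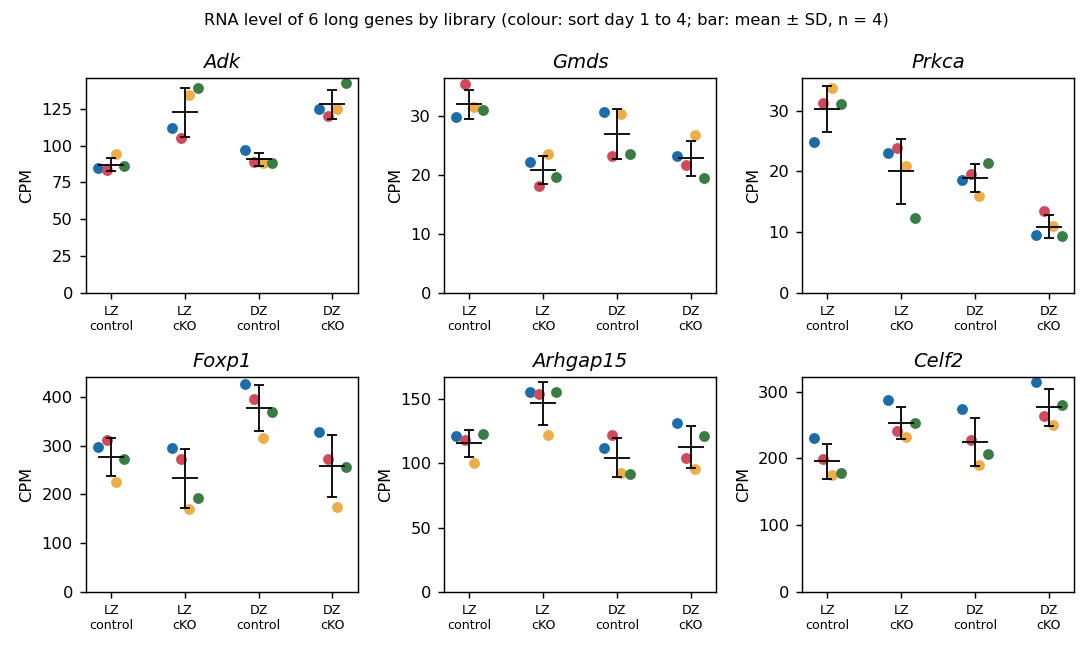
CPM of 6 long genes in each mRNA library (points, coloured by sort day 1 to 4) with the mean and SD of each group (n = 4). Adk is higher in cKO in both zones with no overlap, Gmds overlaps in DZ only, and the Prkca groups do not overlap in either zone.

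Of the role lists, only the fragile site and very large gene list held a gene past the test, Gmds in LZ, and no list had one in DZ. With sort day as a block, Hdac9 of the transcription list and Arhgap15 and Itpr1 of the signalling list were also called in LZ, and Foxp1 of the transcription list and Prkca and Itpr1 of the signalling list were called in DZ. The median log2 fold changes in LZ and DZ were 0.04 and -0.08 for the 18 transcription and chromatin genes, 0.00 and 0.11 for the 22 signalling genes with RNA, 0.15 and 0.09 for the 12 membrane traffic genes, -0.52 and -0.28 for the 9 very large genes with RNA, and 1.06 and -0.11 for the 3 adhesion and synapse genes with RNA. Over all genes they were 0.02 and 0.01. The list medians were not tested, and the last 2 rest on few genes. The very large genes include some of low RNA level, such as Dmd and Magi2. Over the alternative fits, LZ log2 fold changes ran from -0.62 to 0.82 for Dmd and from 0.53 to 1.62 for the synapse gene Kcnip4, neither called. The examples with the most sites were Exoc4 (466 sites), Vps13b (306), Tbc1d5 (249) and Vti1a (202) for membrane traffic, none of which passed. The interaction of zone and genotype was called for 0 of 15789 genes (0.0%) by edgeR, with 466 (2.95%) at an unadjusted p under 0.05, of which 6 were among the 212 long genes, and for 4 genes by DESeq2. Neither fit paired the LZ and DZ libraries of the same pool, so the spread used was not that of differences within a pool.

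Of the 3 longest genes with RNA, 2 had no site. Dmd, the dystrophin gene, spans 2390 kb, had mean levels of 0.721 to 1.26 CPM in the 4 groups and held 0 sites. Fhit, a fragile site gene of 1612 kb, had 88 sites at 1.93 to 5.37 CPM. Magi2, which encodes a scaffold protein and spans 1485 kb, had 0 sites at 0.826 to 1.62 CPM. At the limit of the rule, Zfp423 (300.2 kb) and Jazf1 (300.6 kb) lay just inside with 0 sites each, and Akap13 (299.1 kb) and AW554918 (298.6 kb) lay just outside with 286 and 41.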

How the data were processed

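The mRNA values are read counts per Ensembl gene that the authors deposited. Per the labels' protocols, 2 ng of RNA was amplified with the SMART-Seq v4 kit, which does not mark strand, so reads of overlapping genes cannot be told apart. For these libraries the tools named are HISAT2, HTSeq and Trim Galore 0.4.2, with build GRCm38, per the submitters' processing notes. Not given in the sources used here are the versions of HISAT2 and HTSeq, the gene annotation they used and whether counting used strand. The iCLIP lists hold, per nucleotide and strand, a deposited score that is the number of cDNAs. Per the file headers, positions had a false discovery rate under 0.05 from 100 permutations over 15 nt, within regions of Ensembl 75. The pooled list was called by the authors on summed cDNAs, so it is not independent of the 5 separate lists. Bowtie is named for these in the submitters' processing notes.

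Rows that name no gene (41.4 to 49.8% of counts) were left out. The low-count filter was filterByExpr (minimum count 10). All 16 libraries entered a single quasi-likelihood fit, robust and with TMM factors (edgeR 4.0.16, R 4.3.3), and p-values were adjusted by Benjamini-Hochberg over 15789 genes with a threshold of 0.05. CPM values are TMM-scaled and not corrected for length. Values per library were compared within groups, and none was a duplicate (chi-square per degree of freedom 22.2 to 167). Libraries are biological pools, per the series' design text. On simulated LZ data of 15789 genes, 90 of 100 genes changed 2-fold and 100 of 100 changed 4-fold were recovered, with 7 unchanged genes called. The simulated spread was smaller than that of the real libraries, whose common biological coefficient of variation was 40.3%. Only genes of higher RNA level were changed in it, so these shares are not the sensitivity of the real test. The labels give 1 sort day to each replicate number, and the numbers were taken to pair the samples. Deviations of same-day libraries from their group means correlated at 0.141 to 0.499. Libraries of different days were not compared and sex went with sort day, so sharing of day and of sex cannot be told apart there.

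Spans came from a RefSeq gene table of GRCm38 and matched 554 of 556 long genes to 1 count row. Strand was in the promoter table for 424 long genes. Exon and intron positions were not analysed here. Density is sites per kb of span interior in exactly 1 protein-coding span. Support means a site at the same nucleotide and strand in a separate list. The genes named are the 12 with the most sites, the 6 densest with at least 10 sites, every long gene called (1 of them is not reported here), the holders of the 5 largest clusters, the 3 longest with RNA, the 2 nearest each side of the span limit and the list members with the most sites. Genes named because the fit with sort day as a block called them, and those named for position, level or support, were chosen after their values were seen. The members and lists were chosen with earlier results of these data known. Alternatives covered scaling, filtering, DESeq2 1.42.0, the day block, each library left out, span limits, margins, cluster gaps, match distance and cDNA minimum. The analysis used Python 3.11.15, pandas 2.3.3 and scipy 1.17.1.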

Additional observations from a re-analysis of the deposited data

Results flagged for a closer look

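In 123 groups of 4 or 5 libraries, 8 held a library far from the others by Dixon's test, and chance gives about 1 in 20. Prkcb was at 307 CPM in DZ cKO library 3, against 444 to 468 in the others, Arhgap15 at 122 in LZ cKO library 3, against 154 to 156, and Bach2 at 219 in DZ control library 3, against 383 to 413. Inpp4b was at 34.8 CPM in DZ control library 2, against 19.3 to 21.6, and Camk1d at 68.5 in LZ control library 2, against 52.1 to 54.3. Adk was at 97.1 CPM in DZ control library 1, against 88.1 to 89.1, and stayed below every DZ cKO library. Magi2 was at 1.34 CPM in LZ cKO library 1, against 0.633 to 0.688. In iCLIP library 3, 87.9% of its long-gene sites were also in the pooled list, against 96.3 to 96.9% in the other libraries.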

How the results depend on the processing

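Each RNA call of a long gene was lost in some of the fits that left out 1 library. With sort day as a replicate block the LZ counts were 868 of all genes and 11 long genes, and the DZ counts 517 and 9. DESeq2 gave 564 and 10 in LZ, 432 and 7 in DZ, and 4 for the interaction. Without a filter on low counts the LZ counts were 102 and 1. Fits of 1 zone alone gave 98 and 1 in LZ and 52 and 1 in DZ. Leaving out 1 library gave 58 to 195 genes and 0 to 2 long genes in LZ, 49 to 101 and 0 to 3 in DZ, and 0 to 1 for the interaction. In LZ, leaving out any LZ control library or LZ cKO 1, 2 or 4 left 58 to 102 genes, and in DZ, leaving out DZ control 3 or 4 or DZ cKO 2 or 4 left 49 to 62. The causes were not tested.

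The member sites per kb were 0.0982 with spans of at least 200 kb, 0.0613 with 500 kb, 0.094 with spans and sites matched by strand, 0.0826 with a margin of 10 kb, 0.00136 for sites of at least 5 cDNAs, 0.0246 for clusters, and 0.244 in genes with RNA (an analysis added after seeing the data). The log2 ratio of member sites per kb against spans of 30 to 300 kb, over the 5 iCLIP libraries, was -1.607 to -1.541 when 1 library was left out. The sense share was 99.3% with 500 kb and 97.4% for sites of at least 5 cDNAs. The share within 15 nt was 96.5% by strand and 30.6% for sites of at least 5 cDNAs, and became 73.1% and 96.8% with gaps of 5 and 50 nt. The share of sites in a separate list was 35.9%, and 34.4% with 200 kb, 36.8% with 500 kb, 37.3% by strand, 94.3% for at least 5 cDNAs, 50.8% for at least 2 (added after seeing the data), 43.5% and 49.4% with matches within 5 and 15 nt, and 21.4 to 34.9% without 1 library, lowest without library 4.

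Of 1260 recomputed log2 fold changes of named genes, 1192 kept direction and side of the threshold, 34 lost and 7 gained a call, and 27 changed sign, none of them a call. Sort day as a block turned Dmd in LZ to 0.32. Leaving out 1 library gave, in LZ, -0.0563 to 0.097 for Prkcb, -0.23 to 0.0799 for Snd1, -0.62 to 0.82 for Dmd, -0.21 to 0.0912 for Vps13b and -0.19 to 0.0405 for Rere, and in DZ, -0.0886 to 0.0857 for Prkcb, -0.0924 to 0.19 for Snd1, -0.26 to 0.11 for Aff3, -0.10 to 0.28 for Prkce, -0.53 to 0.35 for Magi2, -0.15 to 1.37 for Zfp423, -0.0208 to 0.29 for Rad51b and -0.23 to 0.00531 for Vps13b.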

Other observations

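Some long genes that were called with sort day as a block, and not without it, are described here, picked out after their values were seen. All but Fry were also called by DESeq2. Lpp, which encodes a focal adhesion protein, had 11 sites, all in the last 20% of its 599.2 kb span, and its mean level was 85.6 CPM in LZ control and 142.6 in LZ cKO. Fry had 35 sites and 13.3 against 23.8 CPM. Vwa8 had 17 sites, none at the same nucleotide in a separate list, and 13.9 against 24.0 CPM. Hdac9, a class II histone deacetylase gene, had 111 sites, 73.0% of them between 40 and 60% of the span, and 117 against 90.2 CPM. Cdk14 had 3 sites, and 13.5 CPM in DZ control against 6.54 in DZ cKO. Mctp1 had 1 site and was listed at 0 in all 4 DZ control libraries.

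Mid1, which encodes a microtubule-associated ubiquitin ligase, had 118 sites in the LPS-stimulated cells. Its mean levels in the 4 groups of germinal centre cells were 0.583 to 0.983 CPM. A single window of 10 kb held 96.6% of these sites, and the first lay after 94.2% of the span. In Fam172a, 4.47% of 313 sites were in a separate list, and its mean levels in the germinal centre groups were 39.4 to 59.7 CPM. The RNA of the LPS-stimulated cells was not measured here.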
